A study of Mus musculus with 6 samples.

Results

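Respiratory complex I, the NADH dehydrogenase of the mitochondrial inner membrane, was followed through its nuclear genes in mouse hearts infused with angiotensin II (Ang II), the blood pressure hormone of the renin system. The genes were taken by name: every row of the expression table whose symbol starts with Nduf, continues with a, b, c, s, v, ab or af, and ends in a number with at most one letter after it. This gave 41 of the 22556 genes in the table, of which 37 are named as subunits and 4, Ndufaf1 to Ndufaf4, as assembly factors. Hearts came from wild-type mice, and osmotic minipumps under the skin gave Ang II at a dose of 1000 ng/kg/min. The groups were Ang II for 7 days, Ang II for 28 days and a control group labelled as 0 days of infusion, with 2 libraries each and 6 in all. The labels give neither the age or strain of the mice, what the control mice received, nor whether each library came from a separate mouse, so p-values reflect how far these libraries spread, and that spread may be technical.

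Complex I takes electrons from NADH, passes them through a flavin and a chain of iron-sulfur clusters to ubiquinone, and uses the energy to pump protons for ATP synthesis. It is an L-shaped enzyme. Its N module oxidizes NADH, its Q module reduces ubiquinone, and the proximal and distal parts of its membrane arm (P modules) pump protons. A few core subunits, shared with bacteria, do the chemistry, many accessory subunits hold them in place, and assembly factors join the modules but are not part of the finished enzyme. Heart muscle relies on it because most of its ATP comes from oxidative metabolism. The core subunits encoded by mitochondrial DNA were not analysed here.

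Values were RPKM, reads scaled to transcript length and to mapped reads, so levels of different genes can be set side by side per length. The genes with a value above 0 numbered 15636 to 16036 per library. Relative depth, read from low values, ran from 0.895 to 1.16 of that of control replicate 1, and absolute depth is unknown. Tests used log2 of RPKM plus 0.5 for genes with a mean of at least 1 RPKM, which were 11096 in all and 40 of the 41 complex I genes. In these heart samples fewer cells of a type and less RNA per cell cannot be told apart. The defining cardiomyocyte markers, summed over 10 genes, were high in all libraries. In replicates 1 and 2 they were at 42550 and 41650 RPKM in the controls, 47800 and 38640 at 7 days and 48380 and 52310 at 28 days. Fat markers summed over 5 genes to 79.2 RPKM in 28 day replicate 1 and to 20.9 to 45.1 RPKM in the other 5 libraries. Of the 4 atrial markers, which differ with the piece of heart taken, Myl7 was at 52.5 and 646 RPKM in control replicates 1 and 2, 41.2 and 66.2 at 7 days and 341 and 182 at 28 days, and control replicate 2 was also the highest library for Myl4 and Sln. Nppa, also a gene of stressed ventricles, was at 215 and 1605 RPKM in the controls, 1932 and 2084 at 7 days and 1648 and 3040 at 28 days. The part of these markers in the results was not tested.

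Complex I genes were among the abundant transcripts of these hearts. The 40 tested genes had a median level of 307 RPKM (mean over the 6 libraries), against 6.54 RPKM for all 11096 tested genes. The 28 tested accessory subunits spanned 52.7 to 984 RPKM, with a median of 323, and the 7 nuclear core subunits had a median of 305 RPKM. Subunits of one enzyme thus spanned a wide range of mRNA levels per length. The assembly factors Ndufaf1 to Ndufaf4 had means below those of all tested subunits, at 16.2 to 31.7 RPKM. In single libraries of 7 days Ndufaf2 reached 35.7 RPKM in replicate 1, above Ndufb4 at 33.5 in replicate 2.

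**Figure D1:**
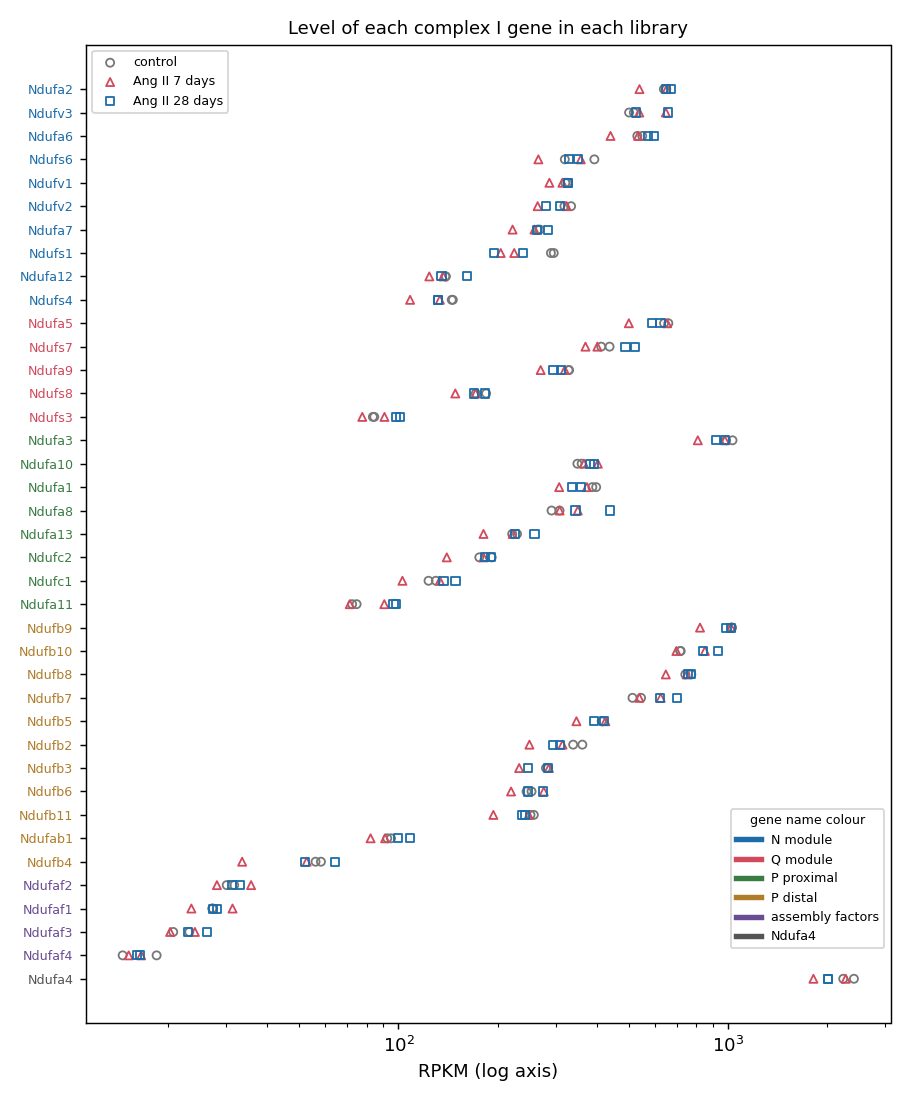
RPKM (log axis) of 39 of the 40 tested complex I genes in each of the 6 libraries, with circles for control, triangles for 7 days and squares for 28 days of Ang II, and gene names coloured by module. Assembly factors lie between 14.6 and 35.7 RPKM, the lowest subunit value is 33.5 RPKM for Ndufb4, and the libraries of a gene lie close together compared with the distance between genes.

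The order of the levels was headed by Ndufa4, with a mean of 2127 RPKM. Ndufa4 carries a complex I name but is now counted as a subunit of complex IV. Next came Ndufb9 and Ndufa3, membrane arm subunits, at 984 and 950 RPKM, and the distal subunits Ndufb10 and Ndufb8 at 791 and 740 RPKM. Ndufb9 and Ndufa3 overlapped in their libraries and so did Ndufb10 and Ndufb8. Among the core subunits Ndufs3, a Q module subunit, was lowest at 89.3 RPKM. Ndufs7, which carries the last iron-sulfur cluster before ubiquinone, stood at 439 RPKM, the NADH-binding subunit Ndufv1 at 317, its iron-sulfur partner Ndufv2 at 305, Ndufs1 at 241 and the iron-sulfur subunit Ndufs8 at 171. Of the accessory subunits the lowest tested were Ndufab1, the mitochondrial acyl carrier protein, at 94.8 RPKM, Ndufa11, at 83.9, and Ndufb4, a distal membrane arm subunit, at 52.7, the lowest of all tested subunits.

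The single untested gene was Ndufs5, an intermembrane space subunit of the proximal arm, listed at 1.09 RPKM in control replicate 1 and at 0 in the other 5 libraries. A row outside the chosen names held a relative of it. BC002163, annotated in GENCODE as a processed pseudogene, shared 196 of its 270 stretches of 50 bases (72.6%) with Ndufs5 transcripts. It was listed at 208 and 206 RPKM in the controls, 233 and 196 at 7 days and 209 and 266 at 28 days, within the range of the accessory subunits. Whether reads from Ndufs5 were counted there was not tested, and BC002163 was looked up after the Ndufs5 values had been seen. Other complex I genes also shared 50-base stretches with other annotated genes, at 39.7% of the stretches for Ndufs3, 37% for Ndufb4 and 34.1% for Ndufb6, against 5.93% for Ndufs1 and 0 for Ndufs7 and Ndufa8. The levels of Ndufs3, Ndufb4 and Ndufb6 are therefore less certain.

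Promoter windows, from 250 bases before to 50 bases after the annotated start, were read from RefSeq (GRCm38.p6), in which 37 of the 41 genes had 39 windows. Ndufa2, Ndufb9 and Ndufs1 were among those with no entry. Letters were searched on both strands for factors known to act on genes of the respiratory chain, and none of the strings searched contains another. GCGCANGCG, the core of sites of nuclear respiratory factor NRF1, was in 25.6% of complex I windows and in 6.25% of all 32851 windows. AAGATGGCG, of YY1, was in 12.8% and in 1.4%, and TGACGTCA, of CREB, in 7.69% and in 1.79%. CCGGAAG, of GABP and other ETS factors, was in 12.8% and 8.86%, GGGCGG, of SP1, in 51.3% and 35.7%, and TCAAGGTCA, of the estrogen-related receptors, in 0 and 0.423%. A match is a description of the letters and not a bound site.

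The windows of Ndufa11, Ndufb4 and Ndufs7 are shown because Ndufa11 had the highest change at 28 days against control and Ndufb4 and Ndufs7 the highest at 28 against 7 days, as described further on; they were chosen after their values were seen. Capitals mark the letters found, which are TGACGTCA and, on both strands at one place, GCGCANGCG in Ndufa11, GCGCANGCG in 3 places and GGGCGG on the other strand in Ndufb4, and AAGATGGCG in Ndufs7. They lie at chr17:56717512-56717811 on the plus strand, chr16:37654319-37654618 on the minus strand and chr10:80249199-80249498 on the plus strand, each printed 5′ to 3′ along the gene.
Ndufa11: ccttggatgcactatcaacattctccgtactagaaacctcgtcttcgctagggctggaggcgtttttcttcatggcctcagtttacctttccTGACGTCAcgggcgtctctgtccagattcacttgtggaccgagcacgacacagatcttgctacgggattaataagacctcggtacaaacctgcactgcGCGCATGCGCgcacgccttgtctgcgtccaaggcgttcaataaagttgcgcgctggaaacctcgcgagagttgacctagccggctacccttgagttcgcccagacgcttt
Ndufb4: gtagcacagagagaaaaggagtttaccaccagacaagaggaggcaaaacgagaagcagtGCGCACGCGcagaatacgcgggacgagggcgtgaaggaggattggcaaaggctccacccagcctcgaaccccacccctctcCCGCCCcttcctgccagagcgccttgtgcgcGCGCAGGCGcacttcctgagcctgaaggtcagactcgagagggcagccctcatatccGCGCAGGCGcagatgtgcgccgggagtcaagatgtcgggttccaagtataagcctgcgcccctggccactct
Ndufs7: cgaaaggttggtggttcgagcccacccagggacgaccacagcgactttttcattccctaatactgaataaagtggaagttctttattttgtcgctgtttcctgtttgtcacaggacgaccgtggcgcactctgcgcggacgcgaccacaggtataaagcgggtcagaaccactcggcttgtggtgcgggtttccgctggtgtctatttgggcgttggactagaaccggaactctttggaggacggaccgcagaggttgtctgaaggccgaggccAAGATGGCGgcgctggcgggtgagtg

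The first question was how 7 days of Ang II compared with the controls. A single gene passed, Ndufs1, the largest core subunit, which carries iron-sulfur clusters of the N module. Ndufs1 was at 224 and 204 RPKM at 7 days, against 290 and 296 RPKM in the controls. Both 7 day libraries lay below both control libraries, and by limma, which moderates the spread of each gene across all genes, it fell by 0.45 on the log2 scale (SE 0.12, 95% interval from -0.74 to -0.16; limma adjusted p = 0.049). The p was close to the threshold of 0.05, and Ndufs1 no longer passed when either control library (replicate 1 or 2) or either 7 day library (replicate 1 or 2) was left out (limma adjusted p = 0.234, 0.228, 0.0819 and 0.17), at log2 changes from -0.52 to -0.38. No complex I gene passed higher by limma. Without adjustment, p was under 0.05 for 2 lower genes, Ndufs1 and Ndufb2, and 0 higher ones, against 5.66% and 26.5% of all tested genes. Over all tested genes 2.27% passed lower and 13.2% passed higher.

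The other 39 tested genes did not pass at 7 days, and most of their values lay slightly below the controls. Fitted changes were below 0 for 32 of the 40 genes, against 31% of all tested genes, and ran from -0.45 to 0.21 on the log2 scale. The median log2 change of the 40 genes was -0.13, against 0.14 for all tested genes, or -0.26 relative to it. Both 7 day libraries lay below both controls for 16 of 40 genes, against 16.1% of all tested genes, and above both for 3 genes, against 48.6%. For 36 of 40 genes the 95% interval of the change lay within 1.5-fold in either direction. These counts describe the genes and carry no test. Median ratio scaling of the libraries moved the median of all tested genes at 7 days to -0.01 and of the complex I genes to -0.28, with 39 of 40 below 0, and of all genes that passed 63.1% were then higher, against 85.3% as deposited.

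**Figure D2:**
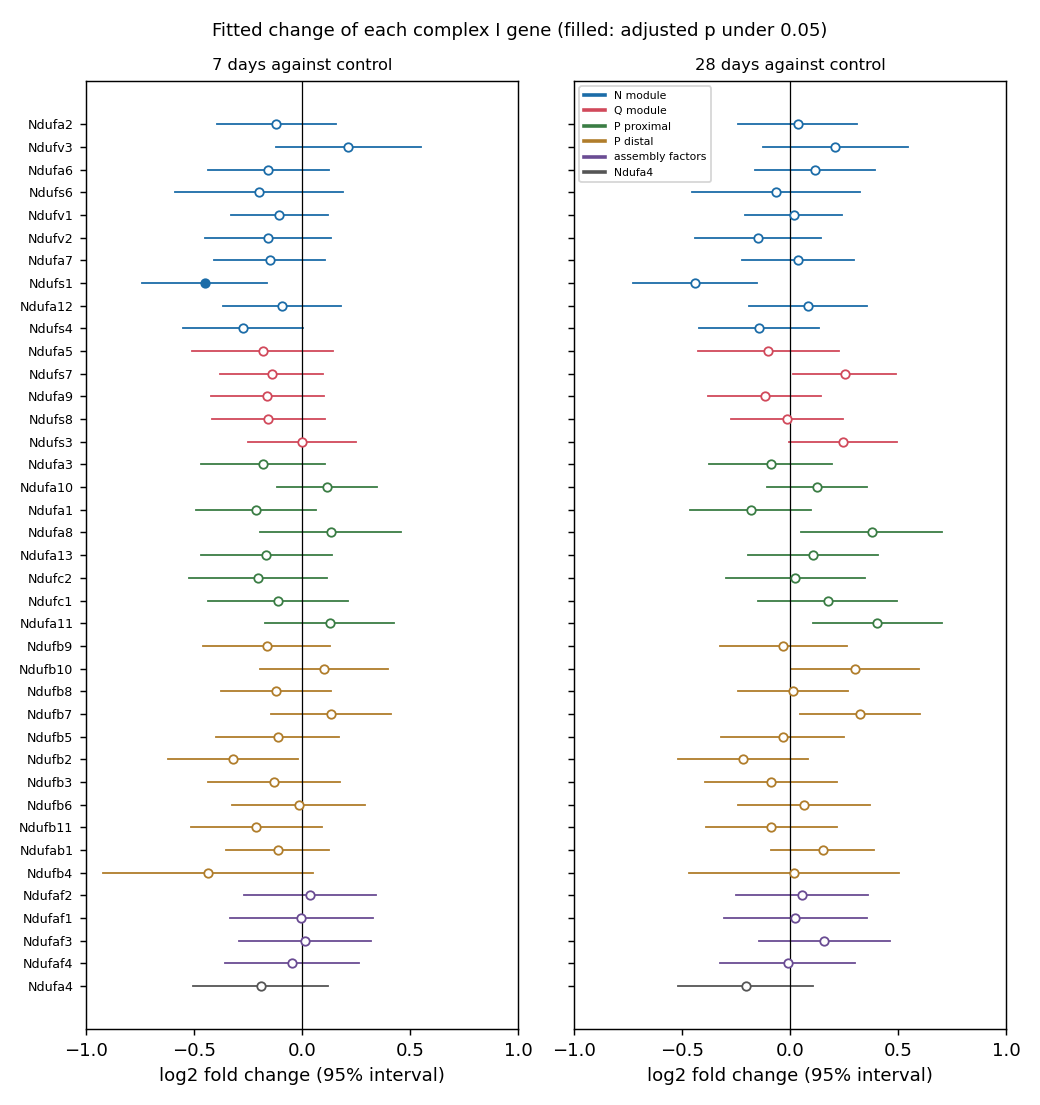
Log2 fold change (x axis) with its 95% interval for 39 of the 40 tested complex I genes, at 7 days (left) and 28 days (right) against control, coloured by module. Filled points passed at an adjusted p under 0.05, and Ndufs1 at 7 days is the single filled point, at -0.45.

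The N module, which oxidizes NADH, had a median log2 change of -0.15 over 10 genes at 7 days. Ndufs4, an accessory subunit needed to hold the N module to the rest of the enzyme, was at 134 and 108 RPKM at 7 days, against 146 and 145 in the controls (log2 change -0.27; limma adjusted p = 0.16). Ndufv1, which binds NADH and the flavin, was at 314 and 287 RPKM at 7 days, against 321 and 325 in the controls (log2 change -0.11; limma adjusted p = 0.492). Both genes lay below the controls in both 7 day libraries, yet their intervals reached past 0. The accessory subunit Ndufv3 had the highest change of all complex I genes, with 648 and 538 RPKM at 7 days, against 518 and 501 in the controls (log2 change 0.21; limma adjusted p = 0.347), and its change was 0.079 without 7 day replicate 1 and 0.35 without replicate 2. The change of Ndufv2 was -0.16 on the log2 scale (limma adjusted p = 0.423), and 1 of its 7 day libraries lay within the control range.

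The Q module, which reduces ubiquinone, also had a median of -0.15, over 6 genes. Ndufs7 was at 401 and 369 RPKM at 7 days, against 437 and 412 in the controls, so both 7 day libraries lay below both controls (log2 change -0.14; limma adjusted p = 0.38). Ndufs8 had a change of -0.16 and Ndufs3 of 0.00 (limma adjusted p = 0.375 and 0.993). All 7 core subunits, over the N and Q modules, had fitted changes below 0, that of Ndufs3 by -0.002 and above 0 without control replicate 1 or 7 day replicate 2.

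In the membrane arm, the 8 tested proximal genes had a median log2 change of -0.14 and the 11 tested distal genes of -0.12 at 7 days. The lowest was Ndufb4, with 52.6 and 33.5 RPKM at 7 days, against 58.2 and 56.0 in the controls (log2 change -0.44, SE 0.21; limma adjusted p = 0.195). Its 7 day libraries differed by more than any other pair of libraries of a complex I gene at that time. Ndufb2, another distal subunit, was at 315 and 250 RPKM at 7 days, against 361 and 339 in the controls (log2 change -0.32; limma adjusted p = 0.137). Without 7 day replicate 1 Ndufb4 and Ndufb2 were at -0.76 and -0.49 and passed (limma adjusted p = 0.0423 and 0.0401), and without 7 day replicate 2 they were at -0.12 and -0.15 and did not (limma adjusted p = 0.673 and 0.366). The highest membrane arm genes were Ndufb7 and Ndufa8, subunits on the intermembrane space side, with changes of 0.13 each (limma adjusted p = 0.479 and 0.557). Ndufa11, a membrane arm subunit at the joint of its proximal and distal parts, was also at 0.13, while the acyl carrier protein Ndufab1 was at -0.11. After median ratio scaling of the libraries Ndufb7, Ndufa8 and Ndufa11 lay below 0, at -0.02, -0.02 and -0.03.

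The 7 day libraries differed from each other in one direction for every tested complex I gene. All 40 genes were lower in 7 day replicate 2 than in 7 day replicate 1, by a median of -0.28 on the log2 scale, and the gap was widest for Ndufb4, at -0.64. Over all tested genes 52.3% were lower in replicate 2, with a median of -0.01. Against the control mean the complex I genes had a median of -0.01 in 7 day replicate 1 and of -0.26 in replicate 2. Ndufs1 stood out in replicate 1 too, since it was at 224 RPKM there while most other subunits of that library were close to the controls. The 40 genes of complexes II to V did the same, with all 40 lower in replicate 2 by a median of -0.26. Of 10 cardiomyocyte markers 7 were lower and 3 higher, and the median over all 10 was -0.24. Macrophage markers summed over 8 genes were at 544 RPKM in 7 day replicate 1 and 600 in replicate 2, against 320 and 324 in the controls, and 8 fibroblast markers at 988 and 1037, against 443 in both. Their part in the complex I values was not tested. In the controls 19 of 40 complex I genes were lower in replicate 2, against 43.6% of all tested genes. At 28 days 9 of 40 were lower in replicate 2, against 41.2%.

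**Figure D3:**
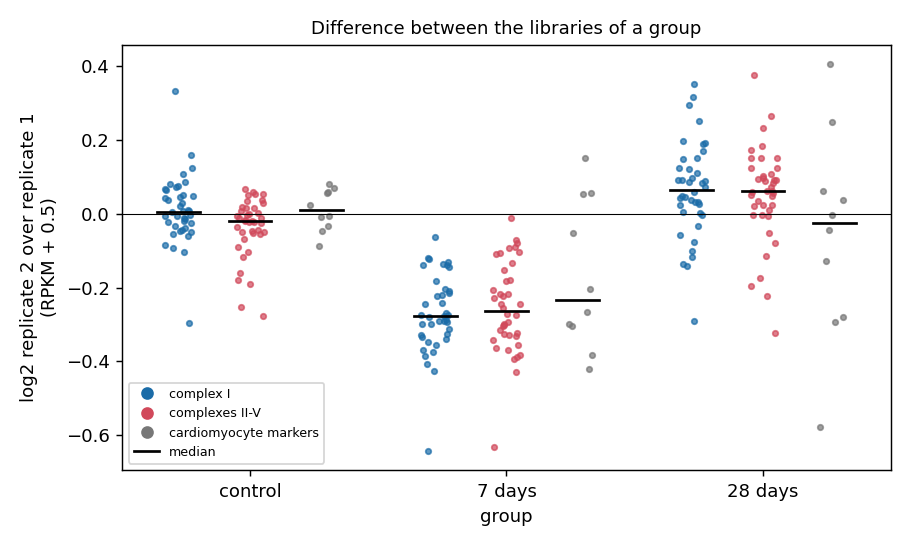
Log2 ratio of replicate 2 to replicate 1 (RPKM + 0.5, y axis) within each group for the 40 complex I genes, the 40 genes of complexes II to V and 10 cardiomyocyte markers, each point a gene and each bar the median. At 7 days every complex I point lies below 0, with a median of -0.28, while in the controls the median is near 0.

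**Figure D4:**
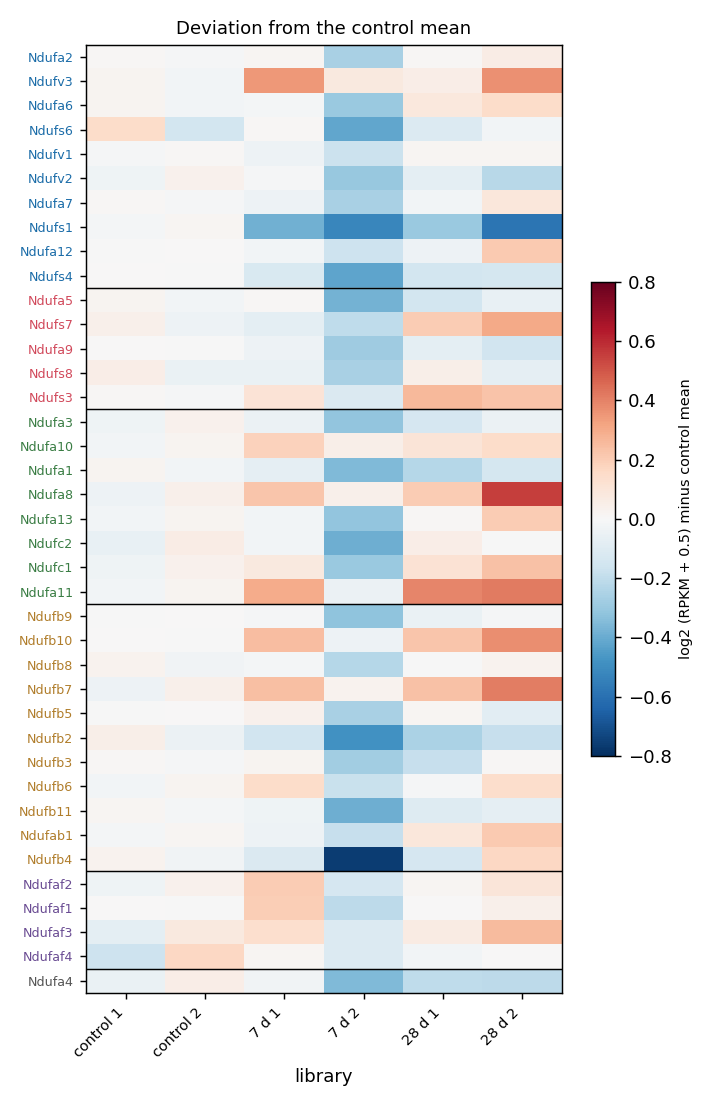
Log2 (RPKM + 0.5) less the mean of the control libraries, for 39 of the 40 tested complex I genes (rows, by module) in each library (columns). The column of 7 day replicate 2 is blue for most genes. Ndufs1 is blue in all 4 Ang II libraries, and Ndufb2, Ndufs4 and Ndufa1 are among other genes below 0 in all 4. The membrane arm genes Ndufa8, Ndufa11, Ndufb7 and Ndufb10 are red in both 28 day libraries.

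The second comparison asked how complex I genes stood after 28 days of Ang II. None passed in either direction by limma. Without adjustment, p was under 0.05 for 1 lower and 5 higher genes, against 9.32% and 12.8% of all tested genes. Over all tested genes 1.54% passed lower and 2.87% passed higher. The median log2 change of the 40 genes was 0.02, against 0.01 for all tested genes, and 17 of 40 were below 0, against 48.3% of all tested genes. After quantile normalization the complex I median was -0.10, with 10 of 40 above 0, against -0.01 for all tested genes. Both 28 day libraries lay above both controls for 14 genes, against 28.8% of all tested genes, and below both for 12 genes, against 25.8%. For 35 of 40 genes the 95% interval lay within 1.5-fold.

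Ndufs1 was again the lowest complex I gene at 28 days. It was at 239 and 195 RPKM, against 290 and 296 RPKM in the controls (log2 change -0.44, 95% interval from -0.73 to -0.15; limma adjusted p = 0.0944). Its libraries did not overlap the controls, but the change did not pass as deposited, and passed after quantile normalization (-0.56; limma adjusted p = 0.0392). The comparisons at 7 and 28 days share the same controls. Ndufb2 and Ndufa4 came next, at -0.22 and -0.21 (limma adjusted p = 0.364 and 0.404). Ndufa4 was at 2015 and 2009 RPKM at 28 days, against 2236 and 2409 in the controls.

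The highest complex I genes at 28 days were in the membrane arm. Ndufa11 was at 96.6 and 98.2 RPKM, against 72.3 and 74.6 in the controls (log2 change 0.40, 95% interval from 0.11 to 0.70; limma adjusted p = 0.128). Ndufa8 was at 344 and 440 RPKM, against 291 and 308 in the controls (log2 change 0.38; limma adjusted p = 0.174), and Ndufb7 at 623 and 701, against 513 and 544 (0.32; limma adjusted p = 0.173). For these 3 genes both 28 day libraries lay above both controls, and none passed. The Ndufa8 value was 0.20 without 28 day replicate 2 and 0.55 without 28 day replicate 1. The medians of the proximal and distal membrane genes were 0.11 and 0.01, those of the N and Q modules 0.03 and -0.06.

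The core subunits went different ways at 28 days, and none of these changes passed. Ndufs7 was at 488 and 523 RPKM, against 437 and 412 in the controls (log2 change 0.25; limma adjusted p = 0.207), with values from 0.089 with GC correction to 0.30 without 28 day replicate 1, and Ndufs3 at 101 and 98.5, against 84.4 and 83.6 (0.24; limma adjusted p = 0.232). Ndufv1 had a log2 change of 0.02, which was below 0 after quantile normalization, Ndufs8 of -0.01 and Ndufv2 of -0.15 (limma adjusted p = 0.94, 0.956 and 0.519). Ndufs1 was thus the single core subunit whose 95% interval lay wholly below 0 at either time.

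The third comparison set 28 days against 7 days. No complex I gene passed by limma. Without adjustment, p was under 0.05 for 2 higher and 0 lower genes, against 3% and 19.1% of all tested genes. Over all tested genes 0.406% passed higher and 4.26% lower. Fitted changes were above 0 for 38 of 40 genes and below 0 for Ndufa4 and Ndufv3, against 71.3% of all genes below 0. After median ratio scaling all 40 were above 0, with Ndufa4 at 0.13 and Ndufv3 at 0.14, while the median of all genes was 0.01. The median was 0.13, against -0.12 for all genes, and 0.12 without 7 day replicate 2 and 0.39 without 7 day replicate 1 when taken relative to all genes, against 0.26 with all libraries. Both 28 day libraries lay above both 7 day libraries for 11 genes, against 9.12% of all genes. The 40 genes of complexes II to V moved in the same direction, with 36 fitted changes above 0 and a median of 0.09. After median ratio scaling all 40 of them were above 0 too, with a median of 0.23. Between the same groups 8 of 8 macrophage markers and 5 of 8 fibroblast markers fell (limma), with median log2 changes of -1.17 and -1.42. The macrophage markers summed to 288 and 207 RPKM at 28 days, against 544 and 600 at 7 days, and the fibroblast markers to 509 and 421, against 988 and 1037. Their part in the complex I values was not tested.

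Ndufs7 and Ndufb4 differed most between the times. Ndufs7 was at 488 and 523 RPKM at 28 days, against 401 and 369 at 7 days, with no overlap (log2 change 0.39, 95% interval from 0.15 to 0.63; limma adjusted p = 0.0791). Its change passed after median ratio scaling, at 0.53 (limma adjusted p = 0.0375). Ndufb4 was at 52.1 and 64 RPKM at 28 days, against 52.6 and 33.5 at 7 days, and the groups overlapped (0.45; limma adjusted p = 0.252). The Ndufb4 value ran from 0.13 without 7 day replicate 2 to 0.77 without 7 day replicate 1. The proximal subunit Ndufc1 came next, at 137 and 149 RPKM at 28 days, against 133 and 103 at 7 days (0.28; limma adjusted p = 0.275), and its value was 0.097 without 7 day replicate 2 and 0.47 without 7 day replicate 1.

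Assembly factors stayed close to the controls at both times. Ndufaf1, a member of the complex that builds the proximal membrane arm, had log2 changes of -0.00 and 0.02 at 7 and 28 days. Ndufaf2, a late factor related to Ndufa12, had 0.03 and 0.06, and Ndufaf3 and Ndufaf4, which act together on the Q module, had 0.01 and 0.16, and -0.05 and -0.01. The limma adjusted p of these 8 changes lay between 0.511 and 0.987. At 7 days all 4 lay below 0 after median ratio scaling, with a median of -0.15, or after quantile normalization, with a median of -0.18. In single libraries Ndufaf1 was at 27.3 and 27.2 RPKM in the controls, 31.4 and 23.5 at 7 days and 27.4 and 28.1 at 28 days. Ndufaf4 was at 14.6 and 18.5 RPKM in the controls, a wider gap than between its 7 day libraries, at 16.6 and 15.2, or its 28 day libraries, at 16.1 and 16.4.

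Further assembly factors were listed under older names and so fall outside the 41 genes. Ndufaf5, which hydroxylates Ndufs7, was at 6.53 and 6.61 RPKM in the controls, 7.10 and 7.13 at 7 days and 6.26 and 5.84 at 28 days. Its partner Ndufaf8 was at 33.7 and 38.9 RPKM in the controls, 43.4 and 38.1 at 7 days and 55.4 and 50.6 at 28 days. At 28 days Ndufaf8 did not overlap the controls and had the highest change of the complex I assembly factors (log2 change 0.54, 95% interval from 0.26 to 0.82; limma adjusted p = 0.0531). It did not pass as deposited and passed among genes with a mean of at least 5 RPKM (limma adjusted p = 0.0452). Ndufaf6 and Ndufaf7, a methyltransferase, had log2 changes of -0.21 and 0.14 at 7 days and 0.13 and -0.13 at 28 days, and none of the 4 passed (limma adjusted p from 0.334 to 0.617). Of 13 further assembly factors without an Nduf name, such as Ecsit, Tmem126b and Foxred1, 0 passed at 7 or 28 days by limma. Of these 13, Acad9, a partner of Ndufaf1, was lower at an unadjusted p under 0.05 at both times, at -0.25 and -0.26 (limma adjusted p = 0.154 and 0.217).

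The median log2 changes of complex I, -0.13 at 7 days and 0.02 at 28 days, stood beside -0.12 and -0.01 for the 40 genes of complexes II to V, and after median ratio scaling both were at -0.28 at 7 days. Of the genes of complexes II to V, 1 rose and 0 fell at 7 days by limma, against 13.2% and 2.27% of all tested genes. After median ratio scaling 0 rose and 1 fell, against 729 and 426 of the 11096 tested genes. After quantile normalization 0 rose and 2 fell, against 701 and 527. As deposited, unadjusted p was under 0.05 at 7 days for 3 lower genes and 1 higher gene, against 5.66% and 26.5%. At 28 days 0 passed, against 1.54% lower and 2.87% higher of all tested genes. Unadjusted p was then under 0.05 for 1 lower and 3 higher genes, against 9.32% and 12.8%. The gene that rose was Cox8a, a subunit of complex IV, at 222 and 220 RPKM at 7 days, against 167 and 162 in the controls (log2 change 0.42; limma adjusted p = 0.0338). Cox8a did not pass with control replicate 1 or 2 or 7 day replicate 1 or 2 left out (limma adjusted p = 0.199, 0.207, 0.0832 and 0.0984). It did not pass either after median ratio scaling, at 0.27, or quantile normalization (limma adjusted p = 0.117 and 0.0939), nor with no filter, no trend, the replicate block or GC correction (limma adjusted p from 0.0507 to 0.0556). Complex I and complexes II to V were not tested against each other.

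Of 19 regulators of mitochondrial gene expression, 1 fell and 1 rose at 7 days by limma, against 2.27% and 13.2% of all tested genes. None of the 19 passed at 28 days, where 1.54% of all tested genes fell and 2.87% rose. Before adjustment, 2 regulators rose and 0 fell at 28 days with a limma p below 0.05, against 12.8% and 9.32% of all tested genes. Ppargc1a, the coactivator PGC-1alpha, was at 13.3 and 11.3 RPKM at 7 days, against 18.1 and 18.9 in the controls (log2 change -0.57; limma adjusted p = 0.0413). Its relative Pprc1 was at 3.44 and 3.85 RPKM at 7 days, against 2.08 and 2.15 in the controls (0.66; limma adjusted p = 0.0162). Ppargc1a did not pass with no filter, no trend or length correction (limma adjusted p = 0.0805, 0.0561 and 0.052). It did not pass with control replicate 1 or 2 or 7 day replicate 1 or 2 left out (limma adjusted p = 0.177, 0.186, 0.0772 and 0.191), and Pprc1 did not with control replicate 1 or 2 or 7 day replicate 2 left out (0.122, 0.0918 and 0.0984). Of 22 genes of mitochondrial import, cristae and protein quality, 0 passed at 7 days by limma, with 2 higher at an unadjusted p under 0.05, against 26.5% of all tested genes, and 1 rose at 28 days, against 2.87%. It was Tomm20, a receptor of the outer membrane import pore, at 34.2 and 33.8 RPKM, against 23.1 and 22.4 in the controls (0.57; limma adjusted p = 0.0255). Tomm20 did not pass with control replicate 1 or 2 or 28 day replicate 1 or 2 left out (limma adjusted p = 0.211, 0.17, 0.0528 and 0.0508), or with no filter (0.0584).

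The changes of complex I genes were correlated with the base composition of their transcripts, more at 28 days than at 7 days. Across the 40 genes, Spearman's rho between GC content of the longest coding transcript and the log2 change was 0.36 at 7 days and 0.61 at 28 days. Over the 40 genes of complexes II to V it was 0.37 and 0.36, and over the 10728 tested genes with such a transcript 0.26 and 0.38. At 28 days the 20 genes at or above the median GC content of 51.4% had a median change of 0.11, with 16 above 0, and the 20 genes below it had a median of -0.08, with 7 above 0. Ndufs1 has 45.1% GC, Ndufa11 58%, Ndufb7 59.7% and Ndufs7 59.6%. These genes share libraries, depth and controls, so the correlations are descriptions across genes. With a GC correction of each library, chosen after the data had been seen, the Ndufs1 change at 7 days was -0.38 and passed (limma adjusted p = 0.0495). At 28 days it was -0.35 with the correction, against -0.44 as deposited, and did not pass (limma adjusted p = 0.123). The Ndufs7 change at 28 days was 0.089 with the correction, against 0.25 as deposited. Transcript length showed little relation, with rho of 0.06 at 7 days and -0.11 at 28 days.

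**Figure D5:**
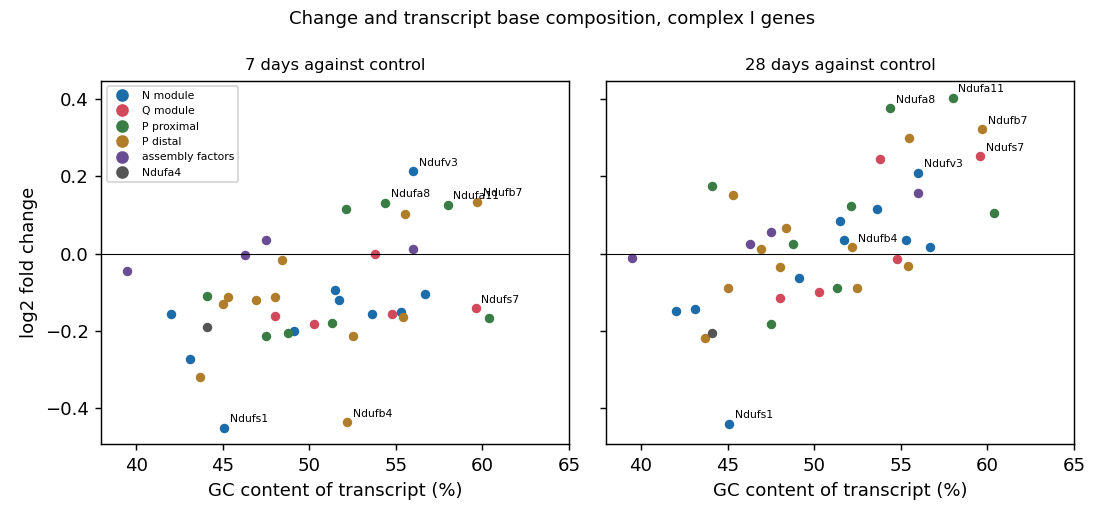
Log2 fold change (y axis) against GC content of the longest coding transcript (x axis, %) for 39 of the 40 tested complex I genes at 7 days (left) and 28 days (right) against control, coloured by module. At 28 days the points climb from lower left to upper right, with Ndufs1 at 45.1% GC and -0.44 and Ndufa11 at 58% GC and 0.40.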

How the data were processed

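The authors deposited 1 table with 1 RPKM value per gene and library, reads scaled by transcript length and mapped reads, per the file headers. Per the submitters' processing notes TopHat2 2.0.12, Bowtie 0.12.9, HTSeq and DESeq2 were used with builds mm8 and mm9, without roles. The sources used here do not name the annotation or the tool behind the RPKM. RPKM were used as deposited.

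All 6 libraries were fitted in limma 3.58.1 (R 4.3.3) with group means and a mean-variance trend on log2(RPKM + 0.5). Residual degrees of freedom were 3 and prior ones 4.21. On this scale the changes of low genes come out too small. P-values were adjusted by the Benjamini-Hochberg method over the 11096 tested genes, with a threshold of 0.05. Members and gene lists were chosen with earlier results of these data known. Named genes were those that passed, the core subunits, the assembly factors, Ndufa4, the 3 highest and 3 lowest changes of each comparison, and up to 3 passing genes of each other list. The values of 1 tested gene enter the counts and medians but are not reported here. Members named for level, copies or as examples were added after their values were seen. Transcript sequences came from GENCODE vM21 (GRCm38), a build other than that of the table, so genes were matched by symbol or, for missing list genes, by an older symbol in RefSeq. Alternatives were pseudocounts of 0.1 and 1, no filter, a mean of at least 5 RPKM, median ratio scaling, quantile normalization, no trend, 2 groups only, a replicate block and each library left out, which takes the spread of a lone remaining library from the other groups. Promoter letters and GC and length corrections were chosen after seeing the data. Python 3.11.15 was used for sequences and figures.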

Additional observations from a re-analysis of the deposited data

Results flagged for a closer look

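For 3 complex I genes both 7 day libraries lay below both controls and both 28 day libraries above them. This is 7.5% of the 40 tested complex I genes, and 0.541% of all 11096 tested genes showed the pattern. The genes share libraries, and the shares carry no test. They were Ndufs7 (log2 change -0.14 at 7 days and 0.25 at 28 days), Ndufab1 (-0.11 and 0.15) and Ndufv1 (-0.11 and 0.016). The difference between the times was tested by the 28 against 7 day comparison and passed for none of the 3. Limma adjusted p was 0.0791, 0.188 and 0.495, at differences of 0.39, 0.26 and 0.12. For Ndufv1 the lower 28 day library was at 326.3 RPKM and the higher control at 325.5. Uqcrc1, a complex III gene, showed the pattern too. Its values were 553 and 552 RPKM in the controls, 546 and 507 at 7 days and 562 and 595 at 28 days.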

How the results depend on the processing

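With 2 libraries per group and unknown absolute depth, small changes could not be resolved. Of 1323 values of 26 named genes under 11 other settings and 6 left-out libraries, 1212 kept their direction and side of the threshold, 32 lost a call, 9 gained one and 70 changed sign, none of them called and none over 0.165 on the log2 scale as deposited. The causes were not tested.

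Complex I genes passing lower at 7 days numbered 1 as deposited, 0 with no filter on low values, 0 without the mean-variance trend, 0 with the replicate block and 3 after quantile normalization, and 0 to 2 with a library left out. At 28 days 1 passed lower after quantile normalization. Between 28 and 7 days 1 passed higher after median ratio scaling and 1 after length correction. The complex I median relative to all genes was -0.39 to -0.17 at 7 days with a library left out. At 28 days it was 0.01 as deposited, -0.019 among genes of at least 5 RPKM, -0.086 after quantile normalization, -0.009 with GC correction, -0.053 with length correction and -0.006 to 0.039 with a library left out. For 28 against 7 days it was 0.071 after quantile normalization and 0.12 to 0.39 with a library left out. GC and length correction were chosen after seeing the data. Replicate numbers were not taken as pairs, since the library deviations correlated across genes at 0.149, -0.019 and -0.014. With the replicate block Ndufs1 at 7 days had an adjusted p of 0.0553 by limma.

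At 7 days the values that changed sign after median ratio scaling were Ndufaf2 -0.12, Ndufaf3 -0.14, Ndufaf5 -0.039, Ndufaf7 -0.015, Ndufa8 -0.025, Ndufb7 -0.023 and Ndufa11 -0.03. After quantile normalization they were Ndufaf2 -0.15, Ndufaf3 -0.17, Ndufaf5 -0.069, Ndufaf7 -0.035, Ndufaf8 -0.011, Ndufb7 -0.009 and Ndufa11 -0.062. With GC correction they were Ndufaf1 0.051, Ndufaf3 -0.08 and Ndufaf4 0.15. With length correction it was Ndufaf3 at -0.034. At 28 days the values that changed sign after quantile normalization were Ndufv1 -0.16, Ndufaf1 -0.059, Ndufaf2 -0.031 and Ndufb4 -0.096. With GC correction they were Ndufv1 -0.11, Ndufv2 0.011, Ndufaf4 0.20, Ndufb4 -0.023 and Ppargc1a 0.034. With length correction they were Ndufv1 -0.017, Ndufaf1 -0.013, Ndufaf2 -0.038 and Ndufb4 -0.044. For 28 against 7 days the values that changed sign after median ratio scaling were Ndufa4 0.13, Ndufv3 0.14 and Cox8a 0.035. After quantile normalization they were Ndufv2 -0.002 and Pprc1 0.036. With GC correction it was Ndufa4 at 0.013. With length correction they were Ndufaf2 -0.073 and Ndufv3 0.011.

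At 7 days those that changed sign with a library left out ran from -0.11 to 0.11 for Ndufs3, -0.21 to 0.20 for Ndufaf1, -0.13 to 0.21 for Ndufaf2, -0.11 to 0.13 for Ndufaf3, -0.21 to 0.12 for Ndufaf4, -0.046 to 0.30 for Ndufa11 and -0.30 to 0.077 for Ndufc1. At 28 days they ran from -0.072 to 0.044 for Ndufs8, -0.18 to 0.16 for Ndufaf4, -0.02 to 0.28 for Ndufaf6, -0.13 to 0.16 for Ndufb4 and -0.31 to 0.045 for Ppargc1a. For 28 against 7 days they ran from -0.14 to 0.15 for Ndufv2, -0.14 to 0.16 for Ndufs1, -0.18 to 0.23 for Ndufaf1, -0.15 to 0.19 for Ndufaf2, -0.025 to 0.097 for Ndufaf4, -0.18 to 0.15 for Ndufa4, -0.064 to 0.27 for Ndufb2 and -0.16 to 0.15 for Ndufv3.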
